A study of Mus musculus with 4 samples.

Results

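The genes described here were 9 members of the Meis, Pbx and Hox families: Meis1, Meis2, Meis3, Pbx2, Pbx3, Hoxa7, Hoxa9, Hoxa10 and Hoxb4. They were sought by gene symbol in a deposited table of 5332 regions of chromatin whose accessibility differed between Sin3B+/+ and Sin3B-/- long-term hematopoietic stem cells (LT-HSCs). Meis1, Pbx3 and Meis3 each had 1 peak in the table. Meis2, Pbx2, Hoxa7, Hoxa9, Hoxa10 and Hoxb4 had no row, that is, no differential peak in the table analysed here.

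The peaks came from ATAC-Seq, in which the Tn5 transposase cuts open DNA more readily than DNA wound on nucleosomes. Sin3B is a scaffold protein of a histone deacetylase corepressor complex, and the study asked how its loss alters chromatin in LT-HSCs. The Sin3B-/- cells (3BKO in the labels) were from mice in which Vav1-iCre, active in hematopoietic and some endothelial cells, deletes a floxed Sin3B allele. The control cells, WT in the labels, are called Sin3B+/+ here. The study's text calls them Sin3B+/+ and its ATAC-Seq figure legend Sin3B F/F, that is, with the floxed allele. It does not state Vav1-iCre for them, so an effect of that transgene cannot be told apart from the loss of Sin3B. All mice were C57BL/6, and no treatment and no age were given for these 4 libraries. Each of the 2 libraries per genotype pooled LT-HSCs from 2 mice, sorted as L-S+K+Flk2-CD48-CD150+, so the 2 libraries describe the spread between pools and not between single animals.

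Meis and Pbx proteins are TALE homeodomain transcription factors, and Pbx proteins bind DNA together with Hox proteins and with Meis proteins. Hoxa7, Hoxa9 and Hoxa10 are highly expressed in primitive blood cells and decline as these differentiate, and Hoxb4 expands stem cells when overexpressed. Meis1 supports the maintenance of stem cells, and together with Hoxa9 and Pbx3 it can drive acute myeloid leukemia.

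The 3 peaks lay inside their genes, and the 300 bases around each peak centre are shown. They are the central part of each peak, and the level was measured over the whole peak. The sequences are the plus strand of RefSeq build GRCm38.p6, written 5′ to 3′. In the Meis1 and Pbx3 windows, capitals mark matches to the PBX-HOX composite letters TGATNNAT and to the HOXA9 letters TTTAT, on either strand. The Meis3 window held neither, and its capitals mark exon 4.
Meis1, chr11:18970024-18970323: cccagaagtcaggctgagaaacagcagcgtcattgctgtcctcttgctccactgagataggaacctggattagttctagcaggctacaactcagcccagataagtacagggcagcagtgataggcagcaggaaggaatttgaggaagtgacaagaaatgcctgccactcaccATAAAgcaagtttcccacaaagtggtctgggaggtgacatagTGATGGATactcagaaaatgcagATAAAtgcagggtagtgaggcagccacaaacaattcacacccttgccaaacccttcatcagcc
Pbx3, chr2:34359986-34360285: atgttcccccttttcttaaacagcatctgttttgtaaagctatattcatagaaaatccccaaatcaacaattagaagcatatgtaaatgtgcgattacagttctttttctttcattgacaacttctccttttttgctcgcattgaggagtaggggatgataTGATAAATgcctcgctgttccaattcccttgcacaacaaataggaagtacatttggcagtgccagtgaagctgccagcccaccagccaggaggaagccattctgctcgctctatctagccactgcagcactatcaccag
Meis3, chr7:16177930-16178229: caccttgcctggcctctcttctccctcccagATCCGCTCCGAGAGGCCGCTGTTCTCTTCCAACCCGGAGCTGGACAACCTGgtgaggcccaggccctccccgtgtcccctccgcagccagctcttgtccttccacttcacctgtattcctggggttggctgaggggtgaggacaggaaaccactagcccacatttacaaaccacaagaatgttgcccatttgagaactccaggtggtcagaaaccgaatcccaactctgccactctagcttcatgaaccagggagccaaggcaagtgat

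The table held only peaks that the authors had called as differing between genotypes, so the presence of a row already means a difference in their test. Levels are the normalized read levels per peak as deposited. Summed over the table they came to 1986378 and 1657641 in the Sin3B+/+ libraries and to 2837467 and 3102888 in the Sin3B-/- libraries. Within a library, 100% of the values fell within 0.02 of a multiple of 1 step. The step was 0.228 and 0.343 for the Sin3B+/+ libraries, and 0.625 and 1 for the Sin3B-/- libraries. In numbers of steps, Sin3B+/+ replicates 1 and 2 summed to 8705855 and 4836132, and Sin3B-/- replicates 1 and 2 to 4541377 and 3102888. No source states that 1 step is 1 read, although whole reads times 1 factor per library would give such steps. If it is, a higher summed level in Sin3B-/- appears only after the scaling. The total library depth is unknown here. Sin3b itself had 0 peaks in the table, so these data hold no check of the deletion. Of the genes that mark LT-HSCs, 6 of 14 had a table peak (Slamf1, Procr, Gata2, Fgd5, Hoxb5 and Mllt3), and of those that mark other blood cells, 4 of 22 had one (Itga2b, Csf1r, Pf4 and Klf1). Of all protein-coding genes, 15.7% had one. All 13 of these peaks were higher in Sin3B-/-, as were 95.7% of the peaks of the whole table. A table of differences does not show how open the marker genes were in absolute terms, and a part of other cells in the sorted pools was not tested.

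Meis1 encodes the family member that is most closely tied to stem cell maintenance. Its peak (ENSMUSG00000020160, chr11:18969835-18970512, 678 bp) lay in intron 7 of 11 of transcript Meis1-209. The gene is on the minus strand, and the peak centre was 48812 bp from the gene start, 35.1% of the way along the gene. The intron is 46463 bp long, with 17755 bp between the peak and the upstream exon and 28030 bp to the downstream exon. The Meis1 peak had a level of 533 and 472 in the Sin3B+/+ libraries and of 689 and 853 in the Sin3B-/- libraries. The lower Sin3B-/- value exceeded the higher Sin3B+/+ value by 156 level units. The table rows were chosen for a genotype difference, so such a gap, here and at the other peaks, adds nothing to that choice. How many table peaks show one was not counted. The means were 503 ± 42.7 and 771 ± 116 (SD, n = 2), a 1.53-fold higher level in Sin3B-/- and a log2 fold of 0.62. The limma estimate was 0.61 with an SE of 0.22 and an adjusted p of 0.0054. In pooled cells, a region open in more cells and a region more open in each cell cannot be told apart, here and at the other peaks.

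Pbx3 encodes a Pbx cofactor of Hoxa9 and Meis1 in leukemia. Its peak (ENSMUSG00000038718, chr2:34359828-34360443, 616 bp) lay in intron 2 of 8 of transcript Pbx3-201, also on the minus strand. The peak centre was 13007 bp from the gene start, 6.45% of the way along the gene, in an intron of 146177 bp. The Pbx3 peak had a level of 57.95 and 42.85 in Sin3B+/+ and of 83.1 and 117 in Sin3B-/-. The nearest pair of libraries from the 2 genotypes was 25.15 units apart. The means of 50.4 ± 10.7 and 100.05 ± 24.0 (SD, n = 2) differed 1.99-fold, a log2 fold of 0.99. In limma the difference was 0.97 with an SE of 0.22 and an adjusted p of 2.3e-05.

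Meis3 encodes a Meis paralog best known from neural patterning. Its peak (ENSMUSG00000041420, chr7:16177724-16178435, 712 bp) was the 1 peak among the 3 that was less accessible in Sin3B-/-. Meis3 is a short gene on the plus strand, and the peak covered 145 bp of exon 3, intron 3, the 51 bp of exon 4 and the start of intron 4, which is 733 bp long, in transcript Meis3-201. Its centre fell in intron 4 of 12, 2989 bp from the gene start and 26.2% of the way along the gene. The Meis3 peak had a level of 54.53 and 52.44 in Sin3B+/+ and of 27.49 and 20 in Sin3B-/-. The 2 Sin3B+/+ libraries were close to each other, and both Sin3B-/- libraries were lower by at least 24.95 units. The means were 53.5 ± 1.48 and 23.7 ± 5.30 (SD, n = 2), 2.25-fold lower in Sin3B-/-, with a log2 fold of -1.17. The limma difference was -1.16 with an SE of 0.22 and an adjusted p of 5.2e-07. limma gave the same SE to Meis1, Pbx3 and Meis3. The SE and adjusted p therefore do not measure the spread of each peak's own libraries.

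**Figure D1:**
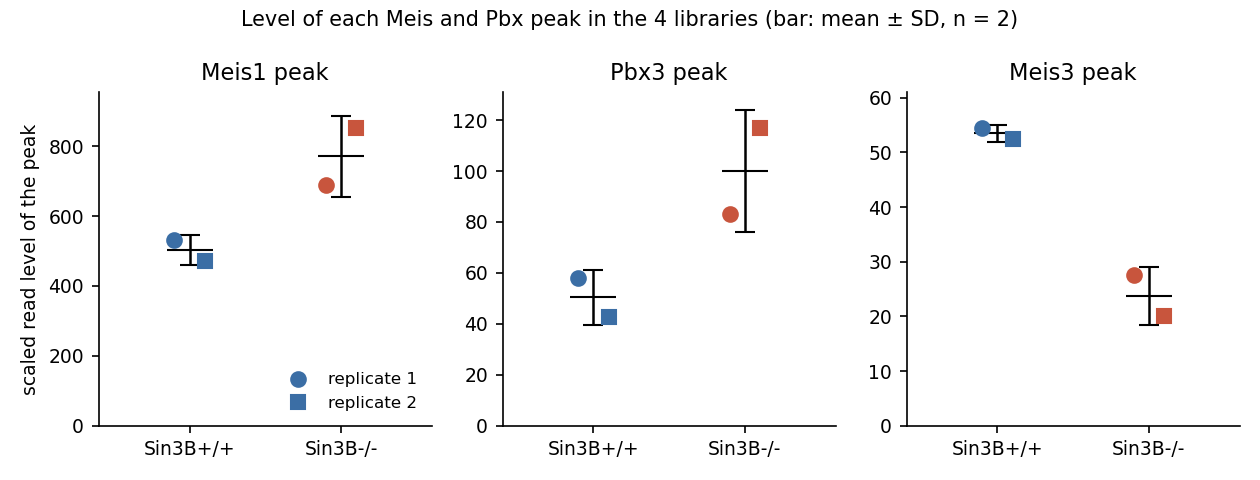
Scaled read level (y axis, from 0, a separate scale per gene) of the Meis1, Pbx3 and Meis3 peaks in the 2 Sin3B+/+ and 2 Sin3B-/- libraries, with points for libraries and bars for the mean ± SD (n = 2). The orange Sin3B-/- points sit above the blue Sin3B+/+ points for Meis1 and Pbx3, and below them for Meis3.

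By limma over the whole table, 2 of the 3 peaks were higher in Sin3B-/- at an adjusted p of at most 0.05, where 95.7% of all table peaks were, and 1 was lower, where 4.29% were. These shares add up to the whole table, which holds only peaks the authors had called. The calls of Meis1, Pbx3 and Meis3 therefore add nothing to their presence in the table. An exact permutation test of 2 against 2 libraries cannot give a p below 0.33.

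The direction for Meis1 and Pbx3 was that of most of the table. Centring the libraries on their medians took the median limma difference of the table from 0.76 to 0.0054 on the log2 scale. The Meis1 difference then became -0.14 (limma adjusted p = 0.57) and that of Pbx3 0.22 (limma adjusted p = 0.49), while that of Meis3 became -1.91 (limma adjusted p = 0.00031). This centring lowers the genotype difference of every peak by about the same amount in a table made mostly of gains. It therefore turns any gain under the table median and deepens any loss. It places the 3 peaks relative to the rest of the table and tests neither the gains nor the loss. Without Sin3B-/- replicate 2 the Meis1 log2 fold was 0.46 (limma adjusted p = 0.13).

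**Figure D2:**
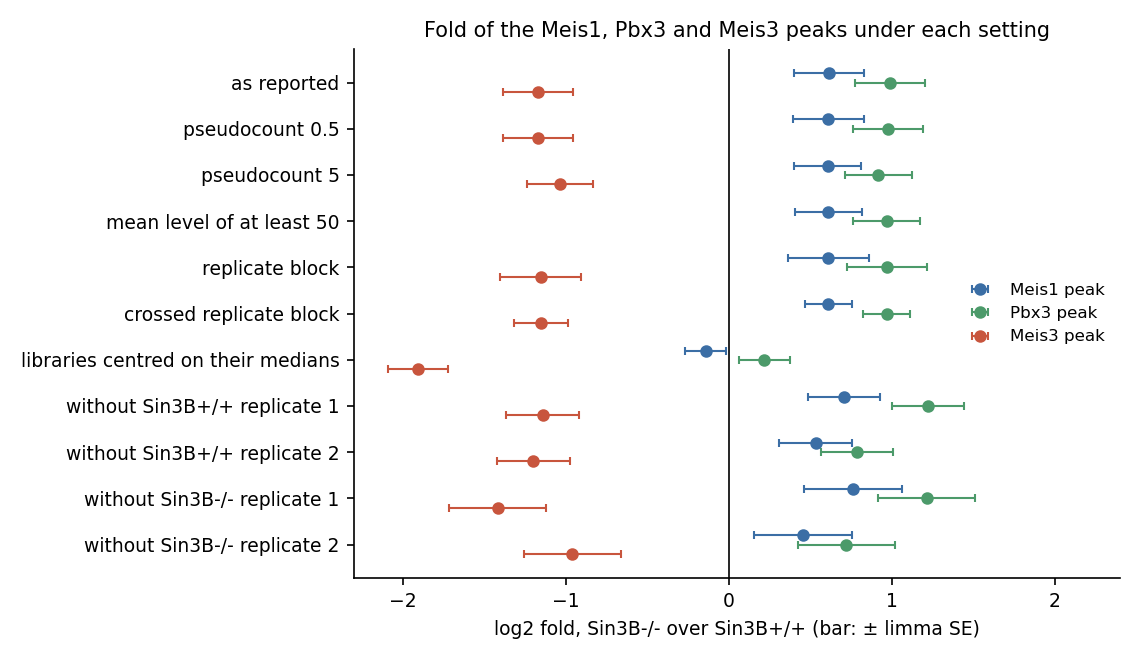
Log2 fold of the Meis1, Pbx3 and Meis3 peaks (x axis) with the limma SE as a bar, under each setting (rows). The row as reported and those without a library show the fold of summed or mean levels. The other rows show the limma estimate, to which the SE belongs. Except with centring and the crossed replicate block, the peaks of a row share 1 SE. Meis3 stays below 0 in every setting shown and has no point where a mean level of at least 50 was required, and Meis1 crosses 0 where the libraries were centred on their medians.

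Among the 5103 peaks higher in Sin3B-/-, 20.1% had a smaller change than Meis1 and 75.3% a smaller change than Pbx3, with a median log2 fold of 0.77. Among the 229 peaks that were lower, 42.4% changed less than Meis3, with a median of -1.25. The mean level over the 4 libraries was 637 for Meis1, which was above 76.7% of the table, 75.2 for Pbx3, above 16.04%, and 38.6 for Meis3, above 3.08%. Low levels were common among the losses, of which 104 of 229 (45.4%) had a mean level under 50. If 1 step is taken as 1 read, which no source states, the Meis3 level of 20 in Sin3B-/- replicate 2 stood for 20 steps, with a 95% exact Poisson interval of 12.2 to 30.9 in level, and the 27.49 of replicate 1 for 44 steps, with an interval of 20.0 to 36.9. The intervals of the Sin3B+/+ levels were 47.8 to 61.9 and 44.5 to 61.4. They cover counting error only and do not reach those of the Sin3B-/- libraries.

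The numbers of steps gave another order of the libraries. The Meis1 peak held 2335 and 1378 steps in Sin3B+/+ and 1103 and 853 in Sin3B-/-. The Pbx3 peak held 254 and 125 steps in Sin3B+/+ and 133 and 117 in Sin3B-/-, and the Meis3 peak 239 and 153 against 44 and 20. In steps, Meis1 was thus lower in both Sin3B-/- libraries, and the Pbx3 ranges overlapped. The sums of steps over the whole table fell in the same order as those of Meis1. They ran from 8705855 for Sin3B+/+ replicate 1 down to 3102888 for Sin3B-/- replicate 2. Fewer steps at a peak therefore do not show lower accessibility, because steps are not adjusted for the size of a library. How many table peaks share this order was not counted. The numbers of steps are read counts before scaling only if 1 step is 1 read.

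The replicates of one genotype also differed by gene. The log2 ratio of Sin3B-/- replicate 2 to replicate 1 was 0.31 at Meis1 and 0.49 at Pbx3, both above the upper quartile of the table (0.24), and -0.46 at Meis3, below the lower quartile (-0.02). Sin3B-/- replicate 2 was therefore the library farther from Sin3B+/+ at all 3 peaks. The same ratio of the Sin3B+/+ replicates was -0.17 at Meis1, -0.44 at Pbx3 and -0.06 at Meis3, against quartiles of -0.40 and -0.12.

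**Figure D3:**
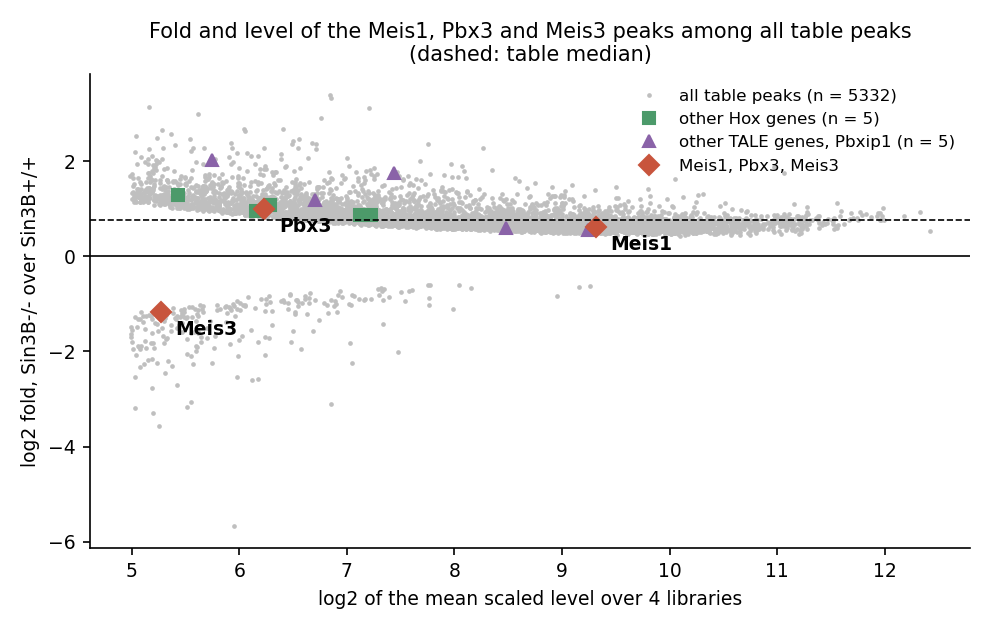
Log2 fold of Sin3B-/- over Sin3B+/+ (y axis) against the log2 mean scaled level over 4 libraries (x axis) for the 5332 table peaks (grey), with Meis1, Pbx3 and Meis3 as diamonds, the 5 peaks of other Hox genes as squares and the 5 peaks of other TALE genes and Pbxip1 as triangles. Meis1 and Pbx3 lie in the band of gains, whose median with the losses included is 0.76 (dashed), and Meis3 lies among the low-level losses.

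The pattern over the 4 libraries was compared between peaks by the Euclidean distance of log2(level + 1), centred per peak. The 3 peaks nearest to Meis3 were those of Gm24326 (distance 0.11, log2 fold -1.07), Gm43174 (0.11, -1.22) and Gm12198 (0.11, -1.25). The 3 nearest to Meis1 were those of Flad1 (0.0087, 0.62), H2-M3 (0.0095, 0.61) and Gm14023 (0.012, 0.61). With 4 libraries, likeness of this kind is a description.

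The 3 peak centres also fell in the same class of position, which the choice of genes did not use. All 3 centres were in introns, where 37.0% of table peaks were, and 0 of 3 were in promoters (from 1000 bp before to 100 bp after a start), where 33.3% of the table was. With promoters widened to 2000 bp on either side of a start, the count stayed at 0 of 3, against 47.1% of the table. With all transcripts of GENCODE M21 instead of the basic set, a choice made after the data were seen, 1 of 3 counted as a promoter peak, Meis3, against 38.9% of the table. Among all transcripts, the Meis3 centre was 333 bp past the nearest start of its own gene. The Meis1 and Pbx3 centres were 41829 and 10711 bp past theirs. The Meis3 peak also covered exon sequence, and the Meis1 and Pbx3 peaks did not. None of these transcripts was measured here.

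Short letter strings that these and other blood transcription factors read were then searched in the windows. The letters TGATNNAT were found once in the 300-base windows of Meis1 (as TGATGGAT, bases 215 to 222) and of Pbx3 (as TGATAAAT, bases 162 to 169), but not in that of Meis3, and in 7.43% of all table windows. The letters TTTAT were found at 2 places in the Meis1 window and at 1 in the Pbx3 window, where the match lies within the TGATNNAT match, and in 34.8% of table windows. The MEIS letters TGACAG was in 0 of the 3 windows and in 20.5% of the table. AGATAA, read by GATA factors, was found at 2 places in the Meis1 window, 1 of them overlapping a TTTAT match, and in 17.9% of the table. AGGAAG, an ETS core, was found at 2 places each in Meis1 and Pbx3, and in 50.8% of the table. The Meis3 window held the RUNX letters TGTGGT once, as did 28.1% of the table. The letters for AP-1 (TGANTCA, 10.4% of table windows), CTCF (2.27%), E2F (GCGGGAA, 4.07%) and CHR (TTTGAA, 13.6%) were in 0 of the 3 windows. The same held for SP/KLF (GGGCGG, 30.4%), NRF1 (GCGCATGCG, 0.88%) and the E-box (CACGTG, 6.86%). Both strands were searched for all 13 motifs. Over the whole peaks instead of the windows, SP/KLF letters were in 1 of 3 (Meis3, against 44.2% of table peaks), RUNX letters in 2 (46.8%) and ETS letters in 3 (73.3%). The other counts were as in the windows. TGATNNAT and TTTAT thus stayed at 2 of 3 each, against higher shares of 15.6% and 62.6% of whole table peaks. With 3 regions, a match is a description of letters and not of a bound factor. The GC content was 49% at Meis1, 42.7% at Pbx3 and 57.7% at Meis3, with a table median of 54%, and the windows held 1, 4 and 7 CpG sites, with a median of 7.

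For the 6 genes with no row, the nearest table peaks show what was near them. The share of genes with a table peak was 3 of 9 here and 15.7% of the 21951 protein-coding genes. Pbx2, a Pbx gene expressed in many tissues, had 1 table peak within 10 kb, 5.988 kb past its end, at the promoter of Rnf5. That Rnf5 peak had a level of 3066 and 2485 in Sin3B+/+ and of 4872 and 5509 in Sin3B-/-, a log2 fold of 0.90. Meis2, a Meis paralog, had none within 100 kb, and its nearest table peak, at BC052040, was 280.9 kb away.

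Hoxa7, Hoxa9 and Hoxa10 sit next to each other in the Hoxa cluster. The Hoxa cluster spans 105 kb and 11 genes and held 0 table peaks, and the nearest peak outside it was 130 kb away, at Gm44077 (log2 fold 1.59). The Hoxb cluster, of 10 genes in 174 kb, held 4 peaks, all higher in Sin3B-/-, as 95.7% of table peaks were. None lay in Hoxb4, and the nearest was 14.65 kb from it, at the promoter of Hoxb5, a gene that marks LT-HSCs. The Hoxb5 peak had a level of 59.09 and 41.47 in Sin3B+/+ and of 103.7 and 107 in Sin3B-/-, a log2 fold of 1.07. The other Hoxb peaks were named for Hoxb9 (1.28), Hoxb2 (0.87) and Hoxb6 (0.86). Of the remaining clusters, Hoxc held 1 peak (named for Hoxc6, 0.96) and Hoxd held 0. Peaks outside the 5332 rows, called or not, were not used here, so a gene with no row is not shown to be unchanged.

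**Figure D4:**
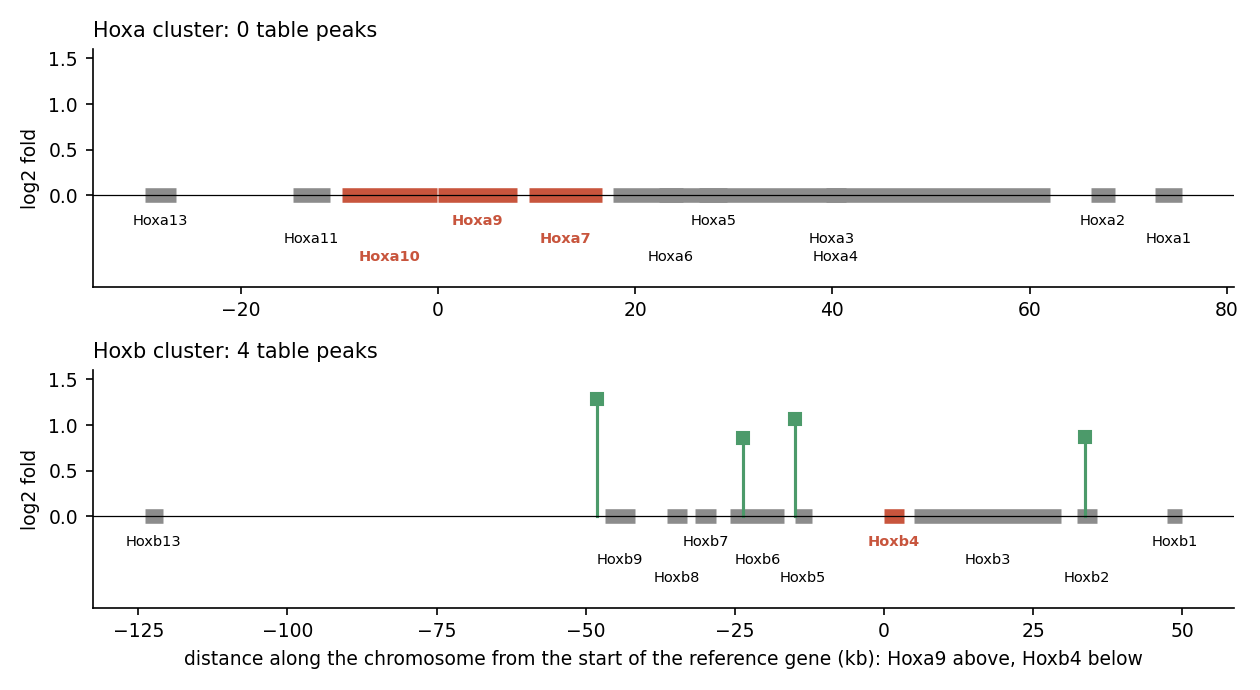
Genes (bars, orange for the genes described here) and table peaks (squares, at the height of their log2 fold, Sin3B-/- over Sin3B+/+) in the Hoxa and Hoxb clusters, by distance in kb from the start of Hoxa9 and of Hoxb4. The Hoxa cluster holds 0 table peaks, and the 4 peaks of the Hoxb cluster have log2 folds of 0.86 to 1.28, with none in Hoxb4.

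Related genes were described from lists. Beside Meis1, Pbx3 and Meis3, 2 of 10 other TALE homeobox genes listed had a table peak. These were Pbx4 and Tgif1, both with a promoter peak that was higher in Sin3B-/-, by a log2 fold of 0.59 and 0.55, below the table median of 0.76. The list also held Pbxip1, whose product binds Pbx proteins, and its 3 peaks had log2 folds of 2.01, 1.75 and 1.19. All 5 peaks of this list were higher in Sin3B-/-, as were 95.7% of table peaks. The Pbxip1 peak with the largest fold had a level of 23.96 and 18.85 in Sin3B+/+ and of 88.7 and 84 in Sin3B-/-. Of 17 other Hoxa and Hoxb genes, 4 had a peak, with a median of 0.97, and of 18 Hoxc and Hoxd genes, 1 had one. Beside these counts of TALE and Hox genes, 15.7% of all protein-coding genes had a table peak.

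Factors that activate Hox genes and Meis1 were next. Of 16 such genes, 5 had table peaks, 8 in all, with a median of 0.92 (0.76 over the table). Each was higher in Sin3B-/-, as 95.7% of table peaks were, and 15.7% of protein-coding genes had a peak. Dot1l, the H3K79 methyltransferase, had 4 of them, with log2 folds of 0.82 to 1.34, and Mllt1, Mllt3 and Mllt10, which encode partners of Dot1l, had log2 folds of 1.04, 0.66 and 0.77. Kat7 was the remaining gene (0.65). Of 18 genes reported as Meis1 or Hoxa9 targets, 7 had 13 peaks, with a median of 0.72. All 13 were higher in Sin3B-/-, which is near the 95.7% of the table, and the share of genes with a peak over all protein-coding genes was 15.7%. The largest of these were at Erg (1.11) and Syk (1.02), and the other genes were Lmo2, Runx1, Myc, Ccnd3 and Ccnd1. Among these lists, Meis3 was the only gene with a peak that was lower in Sin3B-/-. The marker lists had medians of 0.80 for LT-HSCs (7 peaks) and 0.69 for other blood cells (6 peaks).

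**Figure D5:**
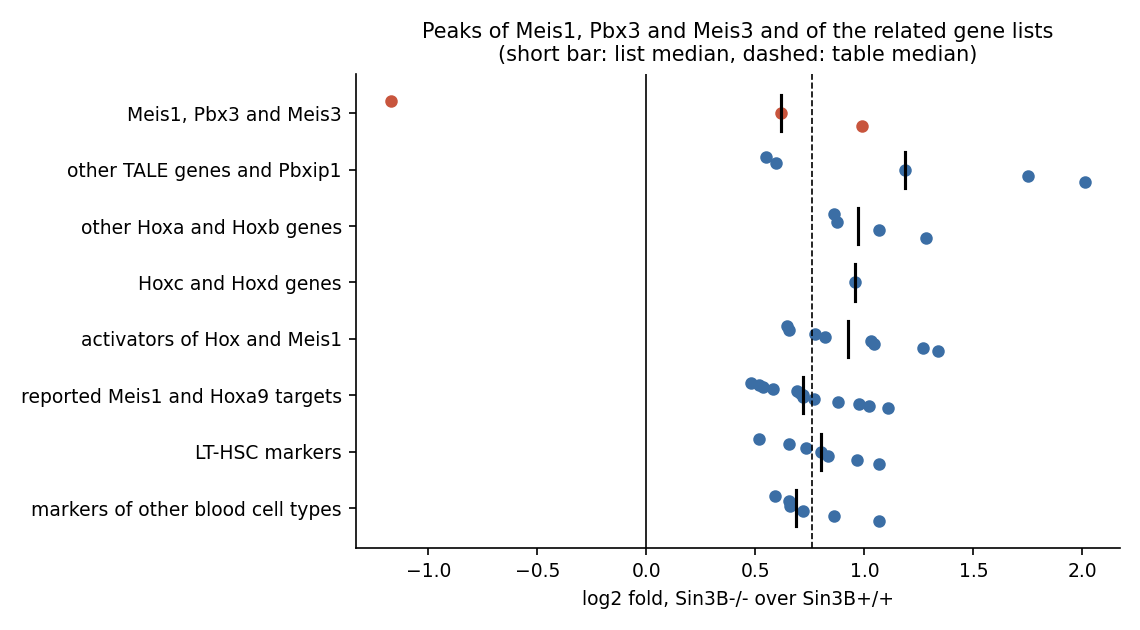
Log2 fold of Sin3B-/- over Sin3B+/+ (x axis) for each table peak of the genes described here and of the related lists (rows), with a short bar at the list median and a dashed line at the table median of 0.76. Points are peaks, and the Meis3 peak at -1.17 is the 1 point left of 0.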

How the data were processed

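ATAC-Seq of sorted LT-HSCs gave 4 libraries, 2 per genotype, amplified for 12 PCR cycles. The authors trimmed reads, aligned them with Bowtie2, removed duplicates, called peaks with MACS2 and, in DiffBind, normalized the reads and tested them with DESeq2. The values per library that they deposited are a signal, a normalized read level per peak. Columns with the authors' own levels, folds, p-values and FDR were not used. Tool versions are not given in the sources used here. The submitters' processing notes name mm9 and the study's methods mm10. Gene starts and ends in the table matched GENCODE M21 (GRCm38) for 96.6% of the 5330 gene identifiers found, and GRCm38 was used.

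The log2 fold is that of the summed Sin3B-/- over the summed Sin3B+/+ levels. With a library left out it is that of the mean levels. Under other pseudocounts, the level filter, centring and replicate blocks, the folds given are limma estimates. limma (3.58.1, R 4.3.3) was fitted to log2(level + 1) over all 5332 peaks, with Benjamini-Hochberg adjustment. The fit was also run on simulated data in which a small part of the peaks changed, equally in both directions. The real table holds only chosen peaks, mostly gains, so that run does not bear on the calls here. The pseudocount can understate changes of low peaks. Positions came from GENCODE M21 basic transcripts. Sequences were read with Python 3.11.15. The genes named were the 9 chosen genes, the 3 nearest peaks in pattern to Meis3 and Meis1, and up to 3 per related list, and the further list genes with a peak were named after their values were seen. The genes and lists were chosen with earlier results of these data known. Alternatives were other pseudocounts, a level filter, centring, a replicate block, a stricter threshold, leaving out each library, other promoter definitions and whole peaks. Same-numbered libraries come from different mice. A related gene of the TALE list is not reported here.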

Additional observations from a re-analysis of the deposited data

How the results depend on the processing

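Of 57 values recomputed for the peak counts, folds and positions, 50 kept their direction and side of the threshold or, for counts, stayed within 1.5 times. These 50 include the 3 folds under an adjusted p of at most 0.01, a setting that cannot move a fold, and the number of genes with a peak, which went from 3 to 4 when peaks within 10 kb counted. The limma estimates under the level filter and both replicate blocks equal those of the fit without them, so their direction could not move. Nor could that of a loss under centring. The counts of called peaks repeat the same folds. The 50 are therefore not independent checks and do not measure robustness. Centring the libraries on their medians lowers the genotype difference of all peaks alike and so fixes the sign of any gain under the table median. With it, the Meis1 log2 fold was -0.14, and that of Pbx3 was 0.22 and no longer called. Of the 3 peaks, 0 were then called higher. In the whole table, limma called 374 peaks higher and 229 lower with centring, against 5103 and 229. Requiring a mean level of at least 50 removed Meis3, leaving 0 peaks called lower. With comprehensive transcripts, 1 of the peaks lay in a promoter instead of 0. Leaving out each library gave log2 folds of 0.46 to 0.76 for Meis1, 0.72 to 1.22 for Pbx3 and -1.42 to -0.96 for Meis3, with 1 or 2 peaks called higher and 1 called lower. The Meis1 call was lost without Sin3B-/- replicate 2. These fits assume that the lone library varies like the others, and without that library limma called 3121 of 5332 peaks higher. Searching whole peaks moved the regions with RUNX letters from 1 to 2 and with SP/KLF letters from 0 to 1.

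With a replicate block, the Meis1 limma fold was 0.61 (adjusted p = 0.016), Pbx3 had an adjusted p of 0.00031 and Meis3 of 2.0e-05, so the same 3 peaks were called, and the table had 5064 higher and 229 lower. Whether same-numbered libraries were prepared together is not stated. The correlation of their deviations over 5332 peaks was -0.10. With 2 libraries per genotype, crossing the numbers only changes its sign, so it cannot show whether a batch was shared. With the numbers crossed, a pairing added after the data were seen, 5103 peaks were called higher and 229 lower. The 2 planned count tests on recovered reads were not run, because the steps could not be established as whole reads. Of the 3 peaks, Meis3 had the fewest steps in Sin3B-/-, with 44 in replicate 1 and 20 in replicate 2.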
